A study of Mus musculus with 13 samples.

Results

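Microglia that gather around damaged neurons, plaques or myelin debris switch on a set of genes that has become known as the disease-associated microglia program. Its early step includes the adaptor gene Tyrobp, and its full form depends on the lipid-sensing receptor TREM2, whose signal runs through the TYROBP protein (DAP12) to the kinase SYK. As the program builds, genes for lysosomal proteins, phagocytic receptors and secreted factors go up, while genes of resting, homeostatic microglia such as P2ry12 and Tmem119 go down. The genes of this program followed here were chosen by name and matched to the mouse GRCm38 symbols: Trem2, Tyrobp, Cst7, Itgax, Clec7a, Axl, Spp1, Gpnmb, Lgals3 and Cd68. They are 10 of the 49315 genes in the count files.

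The data were bulk RNA-Seq libraries of whole midbrain from 13 young adult male mice aged 8 to 12 weeks, 1 mouse per library. Every mouse carried Ripk3fl/fl and received tamoxifen at 60 mg/kg for 5 days at least a week before treatment. Cre+ mice also carried the Aldh1l1-Cre/ERT2 transgene, whose promoter is active in astrocytes, so that Ripk3, a kinase of inflammatory and cell death signalling, is deleted in astrocytes and stays intact in microglia. Cre- littermates kept Ripk3 in all cells. Mice were given MPTP, a toxin taken up by dopaminergic neurons, at 20 mg/kg on 5 consecutive days, or saline, and the perfused midbrain was taken 3 days after the last dose. The 4 groups were Cre- Saline (n = 3), Cre- MPTP (n = 3), Cre+ Saline (n = 3) and Cre+ MPTP (n = 4). The question addressed by this design is whether Ripk3 in astrocytes alters the tissue response to MPTP. The members are read here as genes of a microglial program measured in whole tissue, in which other cells also express some of them.

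Libraries held 11489150 to 29397278 counts assigned to genes. Cre- MPTP replicate 1 stood apart with the lowest total and 21101 genes detected, against 25432 to 27186 in the other 12 libraries. Its counts also differed in composition from those of replicates 2 and 3 of its group. A chi-square between 2 libraries, scaled to their totals, was 315 and 316 per degree of freedom there. Between replicates 2 and 3 it was 10.8. Cre+ MPTP replicate 4 stood apart through genes of muscle, with a summed level of 5980 CPM (counts scaled to a common library total) over 6 muscle genes against 8.02 to 135 in all other libraries. The targeted gene Ripk3 had 4 to 40 counts per library, and its CPM ranges overlapped between genotypes under both treatments, so it could not check the genotype of single libraries. Results that rest on the 2 libraries that stood apart are given with and without them. As a check of the tissue, the 12 pan-microglial genes and the 7 midbrain dopaminergic genes all had counts in every group.

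In Cre- mice, Trem2 fell with MPTP from 11 ± 2.59 to 3.57 ± 1.74 CPM (SD, n = 3 each), whereas in Cre+ mice it was 11 ± 0.390 (n = 3) under Saline and 8.77 ± 0.999 (n = 4) under MPTP. Its signalling partner Tyrobp was not called, and 0 of the 9 members that could be tested rose past the threshold in any comparison of treatments. The regulatory stretch before Trem2 is shown with that before Cst7 because these members had the called fall and the largest upward estimate in the same comparison. Both sequences come from RefSeq on GRCm38.p6 and cover the 250 bases before the annotated start, read 5′ to 3′ on the coding strand. RefSeq windows were found for 9 of the 10 members, and none for Tyrobp. Capitals mark GAGGAA or its reverse complement, the core bound by the myeloid factor PU.1, and TGANTCA. The latter is a loose form of the site of AP-1 factors that allows any base at its centre. The 2 motifs share no base in these windows. The window of Trem2 is chr17:48346151-48346400, and that of Cst7 is chr2:150570165-150570414.
Trem2: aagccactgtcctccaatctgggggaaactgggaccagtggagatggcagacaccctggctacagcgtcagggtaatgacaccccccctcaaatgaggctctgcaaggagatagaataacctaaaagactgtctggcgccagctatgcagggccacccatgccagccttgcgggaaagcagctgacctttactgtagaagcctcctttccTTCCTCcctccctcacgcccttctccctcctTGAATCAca
Cst7: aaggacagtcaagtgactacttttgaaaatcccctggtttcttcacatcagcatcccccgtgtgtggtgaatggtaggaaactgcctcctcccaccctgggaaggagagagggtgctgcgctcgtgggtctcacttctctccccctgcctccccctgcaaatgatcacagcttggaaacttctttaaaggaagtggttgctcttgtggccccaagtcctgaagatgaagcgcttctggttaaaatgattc
The PU.1 core of Trem2 began 40 bases before the start and its AP-1 site 9 bases before it, whereas the Cst7 window held neither. Searched on both strands, the PU.1 core lay in a window of 5 of the 9 members (Trem2, Clec7a, Axl, Spp1 and Cd68) and in 23.3% of all 32851 promoter windows. TGANTCA lay in a window of 3 members (Trem2, Itgax and Cd68) and in 6.75% of all windows. The E-box CACGTG, the site of lysosomal regulators such as TFEB, lay in 0 of the 9 and in 6.02% of all windows. These are matches of letters only.

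In untreated tissue the members spanned a wide range of abundance. Divided by exon length, the mean level in Cre- Saline was highest for Spp1, at 72.3 CPM per kb. Axl followed with 12.1 and Tyrobp with 11.5 CPM per kb, and the ranges of these last genes overlapped. Cd68 (3.95 CPM per kb) and Trem2 (2.22) overlapped as well, and so did Lgals3 (0.344) and Gpnmb (0.318). Cst7 (0.0907), Clec7a (0.0673) and Itgax (0.061 CPM per kb) could not be ordered. The order depends on the exon length used: by CPM alone Trem2 ranked 3 instead of 5, before Tyrobp and Cd68. Spp1 and Axl together made up 86.7% ± 3.23 (SD, n = 3) of the summed CPM of the members in Cre- Saline and 90.3% ± 2.16 (n = 3) in Cre- MPTP. A sum over the members therefore describes mainly these 2 genes, which are not particular to microglia: Spp1 is also made by brainstem neurons and Axl by astrocytes and vessel cells.

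**Figure D1:**
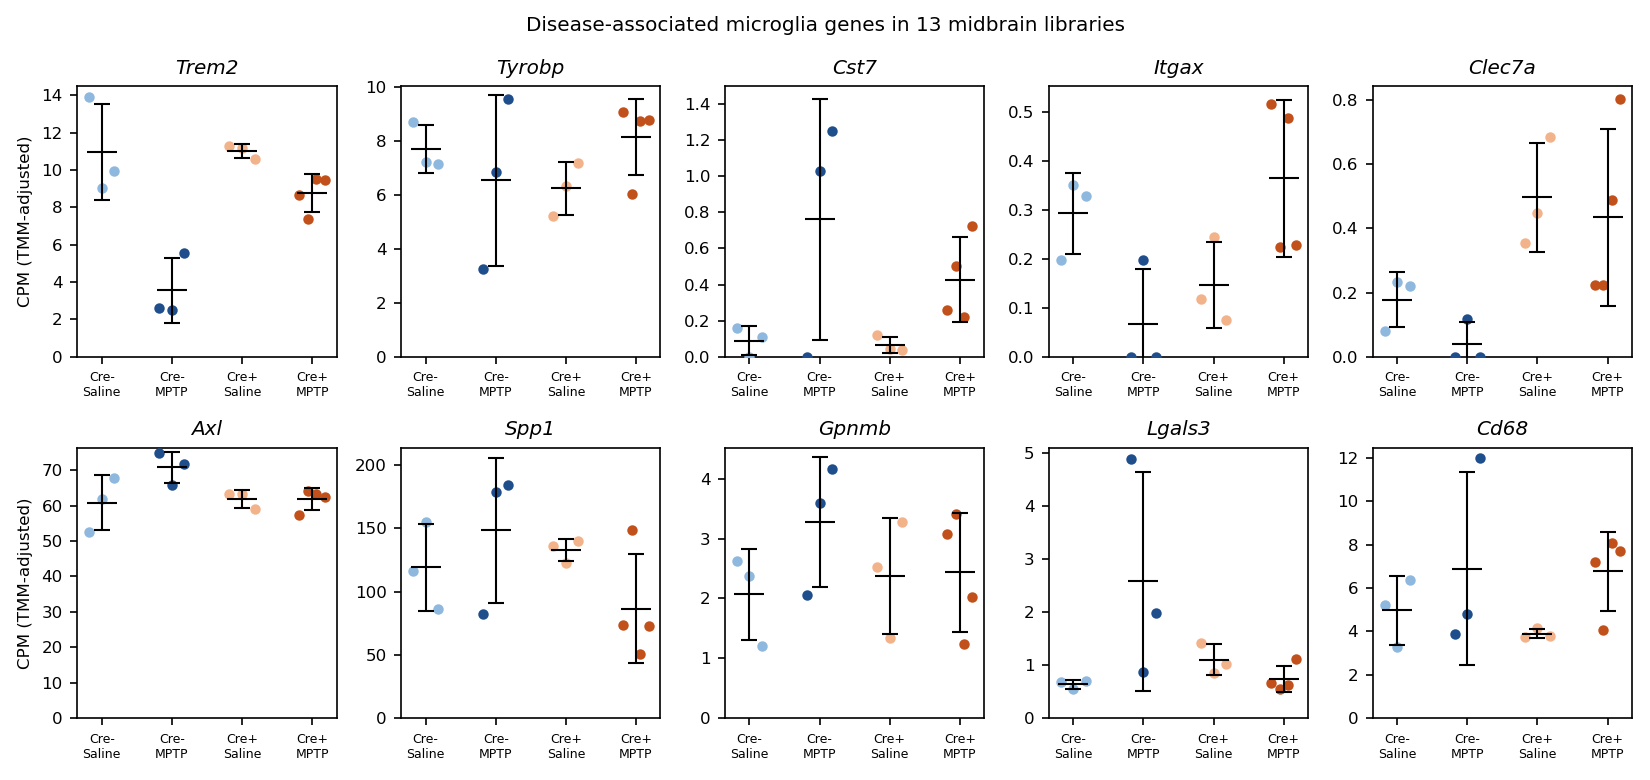
Level of each member in the 13 libraries, in CPM scaled with TMM factors, with 1 panel per gene and its own axis from 0. Points are libraries, and bars are the mean ± SD of the group (n = 3, or 4 for Cre+ MPTP); Trem2 in Cre- MPTP, between 2.53 and 5.58 CPM, lies below all other libraries.

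The receptor gene Trem2 (ENSMUSG00000023992, chromosome 17, 48346401 to 48354147, plus strand) was the only member called in any comparison by edgeR over all 13 libraries. Its level was 13.9, 9.06 and 9.97 CPM in the Cre- Saline libraries and 2.60, 2.53 and 5.58 CPM in the Cre- MPTP libraries. Cre+ libraries gave 11.3, 11.2 and 10.6 CPM under Saline and 8.69, 7.38, 9.54 and 9.46 CPM under MPTP. The 3 Cre- MPTP libraries were thus the 3 lowest of the 13, and the next lowest library was Cre+ MPTP replicate 2. Trem2 fell by 1.59 on the log2 scale with MPTP in Cre- mice (SE 0.29, adjusted p = 0.00839 by edgeR's quasi-likelihood test over 19360 genes). It was higher in Cre+ than in Cre- mice under MPTP by 1.27 (SE 0.276, adjusted p = 0.0417). Within Cre+ mice the difference between MPTP and Saline was -0.33 (SE 0.259, adjusted p = 1.0), although the CPM of these 2 groups did not overlap.

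Both Trem2 calls share the Cre- MPTP libraries and are not separate evidence of their low level. The fall in Cre- mice stayed past the threshold when each of the 13 libraries was left out in turn, with a highest adjusted p of 0.0433, and when both libraries that stood apart were left out. It was not called by edgeR on the 2 groups alone (log2 difference -1.6, adjusted p = 0.225). The difference between genotypes was less firm. It was no longer called without any 1 of the 4 Cre+ MPTP libraries, the 3 Cre- Saline libraries or the 3 Cre+ Saline libraries (adjusted p up to 0.127), nor without both libraries that stood apart (1.06, adjusted p = 0.0602). The interaction, which tests whether the response to MPTP differed by genotype, was 1.26 for Trem2 (SE 0.389, unadjusted p = 0.00668, adjusted p = 0.445). A difference in the Trem2 response between genotypes was therefore not called.

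Tyrobp (ENSMUSG00000030579, chromosome 7, 30413760 to 30417585, plus strand), the adaptor through which TREM2 signals, was called in 0 comparisons. Its level was 8.73, 7.22 and 7.16 CPM in Cre- Saline and 3.25, 6.85 and 9.57 CPM in Cre- MPTP. In Cre+ mice it was 5.24, 6.35 and 7.20 CPM under Saline and 9.09, 6.04, 8.74 and 8.78 CPM under MPTP. The Cre- MPTP values lay on both sides of the Saline values, with replicate 1 lowest and replicate 3 highest of all libraries. The log2 difference was -0.21 in Cre- mice (SE 0.311, adjusted p = 0.771) and 0.38 in Cre+ mice (SE 0.292, adjusted p = 1.0). Without Cre- MPTP replicate 1 the estimate in Cre- mice was 0.1, so its sign depended on that library. Between genotypes under MPTP it was 0.29 (SE 0.292, adjusted p = 0.56), and -0.01 without the same library.

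The ratio of Trem2 to Tyrobp counts compares both genes within a library and needs no scaling between libraries. It was 1.60, 1.25 and 1.39 in Cre- Saline and 2.16, 1.76 and 1.47 in Cre+ Saline. With MPTP the ratio was 0.800, 0.370 and 0.583 for Cre- MPTP and 0.955, 1.22, 1.09 and 1.08 for Cre+ MPTP. Trem2 counts thus exceeded Tyrobp counts in all 6 Saline libraries and were below them in all 3 Cre- MPTP libraries. The values of Cre- MPTP did not overlap those of Cre- Saline (difference of mean log2 ratios -1.34, two-sided exact permutation p = 0.1, adjusted p = 0.133 over 4 comparisons). Neither did those of Cre+ MPTP overlap those of Cre+ Saline (-0.71, exact permutation p = 0.0571) or of Cre- MPTP (0.96, exact permutation p = 0.0571), with an adjusted p of 0.114 for both. These p-values are the smallest that the group sizes allow, so no comparison could pass 0.05 and the test could not decide. The ratio holds the same Trem2 counts as the calls above, so its lack of overlap is no separate support for them. Under Saline the genotypes differed by 0.34 (exact permutation p = 0.2).

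The summed CPM of 12 pan-microglial genes was not lower in Cre- MPTP on average, and overlapped with Saline. Its mean was 346 ± 42.8 (SD, n = 3) for Cre- Saline and 486 ± 168 (n = 3) in Cre- MPTP, and 321 ± 15.6 (n = 3) in Cre+ Saline and 454 ± 91.7 (n = 4) in Cre+ MPTP. Cre- MPTP replicate 1, which stood apart, had the highest sum of its group (640 CPM), against 307 and 511 CPM in replicates 2 and 3. Trem2 as a percent of this sum was 3.15 ± 0.341 in Cre- Saline, 0.774 ± 0.346 in Cre- MPTP, 3.44 ± 0.222 in Cre+ Saline and 1.97 ± 0.265 in Cre+ MPTP. The shares of Cre+ MPTP lay between 1.68 and 2.32, below all 6 Saline libraries and above all 3 Cre- MPTP libraries. The Cre- MPTP shares were 0.406 in replicate 1 and 0.825 and 1.09 in the others. A share also falls when the sum rises. In Cre+ mice all 12 genes of the sum had a difference above 0 with MPTP, and Trem2 (-0.33) was not called. In Cre- mice 8 of the 12 were above 0 and 4 below. In bulk tissue, fewer cells of a type and less RNA of a gene per cell cannot be told apart. Single marks of microglia did not move together in Cre- mice. Csf1r, the receptor that microglia need to survive, had a log2 difference of -0.12 (SE 0.146, adjusted p = 0.7). For Aif1, which encodes IBA1, it was 0.02 with a wide error (SE 0.543, adjusted p = 0.989). The complement gene C1qa had a difference of 1.22 (SE 0.37, adjusted p = 0.121), and the homeostatic gene P2ry12 of -2.79 (SE 0.199, adjusted p = 0.000104).

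**Figure D2:**
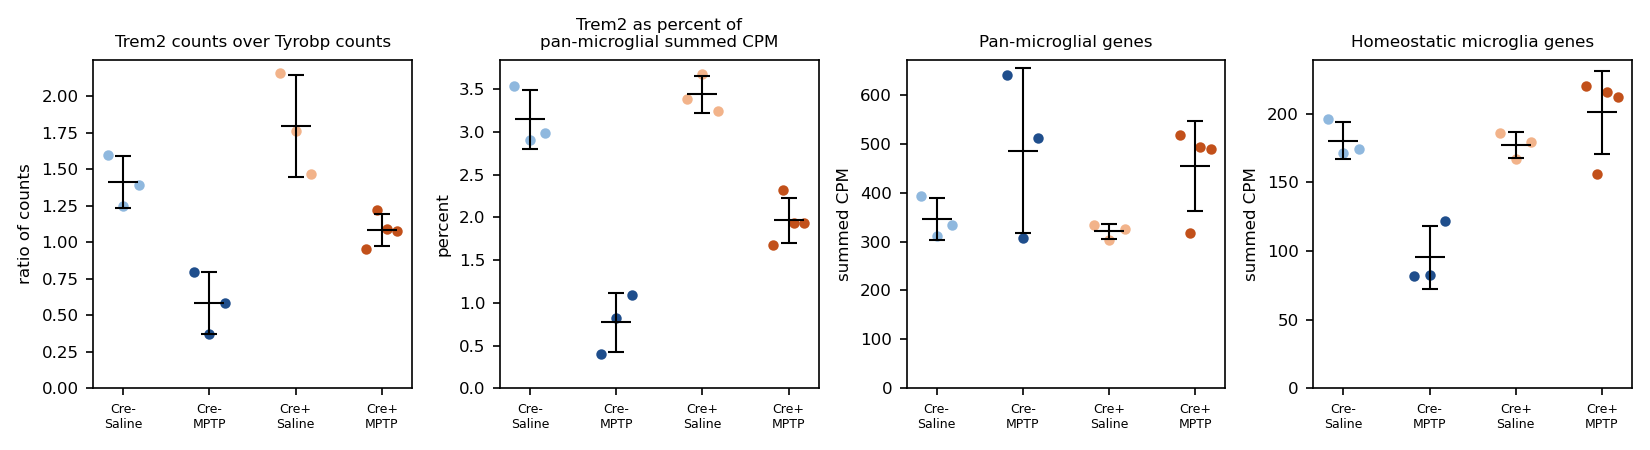
From left to right, the ratio of Trem2 to Tyrobp counts, Trem2 as a percent of the summed CPM of 12 pan-microglial genes, that sum, and the summed CPM of 10 homeostatic microglia genes, by library with the mean ± SD of each group. Cre- MPTP is lowest in all panels but the third, and its ratio lies between 0.37 and 0.8.

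The genes called among the other members of TREM2 and ITAM signalling rose in Cre- mice. Of 18 listed, 17 were tested. With MPTP in Cre- mice 4 rose, against 2.23% of all genes, and 0 fell. The median log2 difference was 0.43 with 14 of the 17 above 0, against a median of 0.03 over all genes tested. In Cre+ mice 0 were called, but the median was 0.48 with 16 of the 17 above 0. A rise of the list was thus not particular to Cre- mice, and between genotypes under MPTP its median was -0.02. Fcer1g, an adaptor with the same type of signalling motif as TYROBP, rose from 4.28 ± 0.637 to 13.1 ± 3.09 CPM (log2 difference 1.61, SE 0.237, adjusted p = 0.00259). Vav1, an exchange factor that acts below SYK in immune cells, rose by 1.53 (SE 0.269, adjusted p = 0.00689). Both of these calls held without each library in turn. Ms4a6d, of the membrane protein family whose human locus is linked to soluble TREM2, rose from 0.690 ± 0.0145 to 15.4 ± 6.43 CPM (4.48, SE 0.529, adjusted p = 0.000979), and its relative Ms4a4a by 3.17 (SE 0.764, adjusted p = 0.0421). The Ms4a4a call was lost in 11 of the 13 fits that left out 1 library, all but those without Cre- MPTP replicate 1 or Cre+ MPTP replicate 4. Syk had a difference of 1.18 (adjusted p = 0.0647) and Plcg2, the phospholipase below it, of 0.38 (adjusted p = 0.392). The differences with MPTP in Cre+ mice were 0.94 for Fcer1g, 0.77 for Vav1, 2.41 for Ms4a6d and 0.9 for Ms4a4a, and 0 of these were called.

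Under MPTP, 1 gene of this list was lower in Cre+ than in Cre- mice, Ms4a6d (-2.09, SE 0.422, adjusted p = 0.0318), and 0 were higher. This call held in 3 of the 13 fits without 1 library, those without Cre- MPTP replicate 1, Cre- MPTP replicate 2 or Cre+ MPTP replicate 2 (-2.69 without the last). Fcer1g had a difference of -0.94 (adjusted p = 0.0524).

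Among the genes of the later program, Cst7 (ENSMUSG00000068129, chromosome 2, 150570415 to 150578944, plus strand) encodes cystatin F, an inhibitor of lysosomal proteases. Its counts were 4, 0 and 3 in Cre- Saline and 0, 26 and 38 in Cre- MPTP, and 3, 1 and 1 in Cre+ Saline and 7, 9, 5 and 19 in Cre+ MPTP. Counts of at most 3 are treated as the floor below which levels are not compared. Thus 6 of the 7 MPTP libraries were above all 6 Saline libraries. The exception was Cre- MPTP replicate 1, which stood apart in composition as well as in its low total. Only MPTP libraries reached 10 counts, so Cst7 entered the test through the treatment where it was higher. In Cre- mice the log2 difference was 3.15 (SE 0.962, unadjusted p = 0.0064, adjusted p = 0.126). Without Cre- MPTP replicate 1 it was 3.61 and called (adjusted p = 0.00639), and it was called in 1 of the 10 fits without a single library in which it was compared (2.6 to 3.78, adjusted p up to 0.377). Across the other alternatives that gave a value, the adjusted p ranged from 2.8e-05 to 0.289. In Cre+ mice all Saline libraries were at the floor, and the mean level with MPTP was at least 3.62-fold higher (unadjusted p = 0.0234, adjusted p = 1.0).

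Itgax, which encodes the integrin CD11c, and Clec7a, the β-glucan receptor dectin-1, were near the limit of detection. Itgax (ENSMUSG00000030789, chromosome 7, 128129547 to 128150657, plus strand) had 5, 9 and 9 counts in Cre- Saline, 0, 5 and 0 in Cre- MPTP, 3, 6 and 2 in Cre+ Saline and 14, 4, 11 and 6 in Cre+ MPTP. It did not reach 10 counts in 3 libraries and was the only member not tested. Clec7a (ENSMUSG00000079293, chromosome 6, 129461591 to 129472779, minus strand) had 2, 6 and 6 counts in Cre- Saline, 0, 3 and 0 in Cre- MPTP, 9, 11 and 18 in Cre+ Saline and 6, 4, 11 and 21 in Cre+ MPTP. Neither gene had more than 5 counts in any Cre- MPTP library. Clec7a reached 10 counts only in Cre+ libraries and entered the test through them. Clec7a was at least 2.4-fold higher in Cre+ than in Cre- mice under MPTP, with the Cre- MPTP libraries at the floor (unadjusted p = 0.00427, adjusted p = 0.135). Under Saline its genotypes did not overlap either (log2 difference 1.45, SE 0.712, adjusted p = 1.0).

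Axl (ENSMUSG00000002602, chromosome 7, 25757273 to 25788705, minus strand) encodes a receptor for phagocytosis of apoptotic cells that binds GAS6. It was the steadiest member, at 52.5, 61.9 and 67.9 CPM in Cre- Saline, 74.7, 65.9 and 71.7 in Cre- MPTP, 63.2, 63.3 and 59.0 in Cre+ Saline and 57.4, 64.2, 63.3 and 62.5 in Cre+ MPTP. Its log2 difference with MPTP was 0.22 in Cre- mice (SE 0.123, adjusted p = 0.404) and 0.0 in Cre+ mice (SE 0.115, adjusted p = 1.0). Under MPTP the Cre+ values lay below all Cre- values, by -0.19 (SE 0.115, adjusted p = 0.368). Pros1, which encodes protein S, a ligand of the related receptors, rose in Cre- mice from 17.5 ± 1.14 to 39.2 ± 4.92 CPM (1.16, SE 0.133, adjusted p = 0.00085), and under MPTP it was lower in Cre+ mice, at 23.3 ± 1.40 CPM (-0.75, SE 0.122, adjusted p = 0.0128). Leaving out Cre+ MPTP replicate 1, 3 or 4 ended the genotype call (adjusted p up to 0.0704).

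Tyro3, a receptor of the same family that is prominent in neurons, fell in Cre- mice from 111 ± 5.21 to 68.9 ± 11.2 CPM (-0.69, SE 0.134, adjusted p = 0.0129). Without Cre- Saline replicate 1 the adjusted p was 0.0556. Mertk, the third receptor, had a difference of 0.8 (adjusted p = 0.0871) and Gas6 of 0.19 (adjusted p = 0.64). Of these 4 genes of related receptors and ligands, 1 rose with MPTP in Cre- mice (Pros1), 1 fell (Tyro3) and 2 did not pass the test, among them Gas6, the ligand of AXL.

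Spp1 (ENSMUSG00000029304, chromosome 5, 104435118 to 104441050, plus strand) encodes osteopontin, a secreted protein that binds integrins and CD44. Its level was 116, 155 and 86.3 CPM in Cre- Saline, 82.4, 179 and 184 in Cre- MPTP, 136, 123 and 140 in Cre+ Saline and 73.7, 149, 50.8 and 72.9 in Cre+ MPTP. In Cre+ MPTP, 3 of the 4 libraries lay below all Saline libraries and replicate 2 did not. In Cre- MPTP, replicate 1 was low and the others were the highest of all 13. Under MPTP, Cre+ differed from Cre- by -0.78 (SE 0.352, unadjusted p = 0.0458, adjusted p = 0.253), and MPTP differed from Saline by 0.32 in Cre- mice (SE 0.379, adjusted p = 0.702) and by -0.62 in Cre+ mice (SE 0.352, adjusted p = 1.0). The interaction was -0.94 (SE 0.518, adjusted p = 0.795). The 6 listed genes of cranial motor neurons, which contain osteopontin, summed to 43.3 to 68.9 CPM in Cre- Saline, 51.2 to 97.2 in Cre- MPTP, 69.7 to 75.7 in Cre+ Saline and 45.0 to 73.5 in Cre+ MPTP. Within Cre+ MPTP, replicate 2 was highest for both Spp1 (149 CPM) and this sum (73.5 CPM). In Cre- MPTP the order was the reverse, since replicate 1 had the highest sum (97.2 CPM) and the lowest Spp1 (82.4 CPM), and replicate 3 the lowest sum (51.2 CPM) and the highest Spp1 (184 CPM). The part of these neurons in the Spp1 values was not tested. Exons of Spp1 share 309 bases with Gm42793 on the same strand, which had 2 to 34 counts.

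With MPTP in Cre- mice 2.23% of all genes rose and 0.956% fell. Of the 10 genes listed as receptors of osteopontin or galectins and as related lectins, 1 rose and 0 fell. It was Lgals3bp, whose product binds galectin-3, from 20.0 ± 3.06 to 78.1 ± 16.6 CPM (1.96, SE 0.216, adjusted p = 0.00085). Under MPTP it was lower in Cre+ mice, at 42.4 ± 9.78 CPM (-0.88, SE 0.194, adjusted p = 0.0433), a call that held only without Cre- MPTP replicate 1 or Cre- MPTP replicate 2 among the 13 fits that left out 1 library. Cd44 had a difference of 1.1 in Cre- mice (adjusted p = 0.211) and of -0.81 between genotypes under MPTP (adjusted p = 0.252).

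Lgals3 (ENSMUSG00000050335, chromosome 14, 47367751 to 47386160, plus strand) encodes galectin-3, a lectin that marks damaged lysosomes. Its level was 0.675, 0.547 and 0.694 CPM in Cre- Saline and 4.88, 0.871 and 1.98 in Cre- MPTP. In Cre+ mice it was 1.42, 0.854 and 1.03 CPM under Saline and 0.665, 0.559, 0.621 and 1.11 under MPTP. All 3 Cre- MPTP libraries lay above the Cre- Saline libraries, but replicate 2 only just, and replicate 2 also lay inside the range of Cre+ MPTP. The difference with MPTP in Cre- mice was 1.94 (SE 0.531, unadjusted p = 0.00313, adjusted p = 0.0805), and the difference between genotypes under MPTP was -1.72 (SE 0.483, unadjusted p = 0.0037, adjusted p = 0.125). Without Cre- MPTP replicate 1, which stood apart and had the highest Lgals3 of all libraries, they were 1.17 (adjusted p = 0.0965) and -0.95 (adjusted p = 0.299). Without Cre- MPTP replicate 2 both were called (2.36, adjusted p = 0.0103, and -2.14, adjusted p = 0.0203), and without any other single library neither was. Across the alternatives other than leaving out 1 library, the adjusted p ranged from 0.00883 to 0.473 for the former and from 0.0197 to 0.532 for the latter. The interaction was -2.5 (SE 0.716, unadjusted p = 0.00422, adjusted p = 0.358), the largest among the members for which no group was at the floor.

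Lgals3 is also abundant in infiltrating myeloid cells. The 7 listed neutrophil genes summed to 0.119 to 1.02 CPM in Cre- Saline, 0.325 to 2.09 in Cre+ Saline, 9.11 to 60.8 in Cre- MPTP and 0.649 to 3.41 in Cre+ MPTP. Their defining marker Ly6g was at or under the floor of 3 counts in all 13 libraries, Cre- MPTP included, with 0.099 CPM at most. Of these 7 genes, 4 were tested, and the 4 were higher with MPTP in Cre- mice and lower in Cre+ than in Cre- mice under MPTP. Of all genes, 2.23% were called higher in the former comparison and 1.03% lower in the latter. Ly6g, Camp and Cxcr2 were not tested. Counts in Cre- MPTP helped the tested genes pass the filter, and for Retnlg only they did. That all 4 were higher there is thus no separate support. In Cre- mice the S100a8 call held without each library, although its difference of 5.92 was 4.65 without Cre- MPTP replicate 3. The S100a9 call was lost without any 1 Cre- Saline library, that of Mmp8 without any of these or Cre- MPTP replicate 3, and that of Retnlg without replicate 1 or 2 of Cre- Saline. Without any 1 Cre- MPTP library Retnlg did not pass the filter. Between genotypes the calls were lost in 2 of 13 fits for S100a8, 10 of 13 for S100a9, 7 of 13 for Mmp8 and 3 of 10 for Retnlg. Leaving out Cre- MPTP replicate 3 ended the genotype calls of S100a9 (-4.05 to -2.6, adjusted p = 0.0748) and Mmp8 (-5.03 to -4.04, adjusted p = 0.0553) and moved S100a8 from -4.31 to -3.03. The neutrophil sum was highest in Cre- MPTP replicate 3 (60.8 CPM), whereas Lgals3 was highest in replicate 1 (4.88 CPM), whose neutrophil sum was 15.3 CPM. The 5 listed monocyte genes summed to 14.7 to 22.7 CPM in Cre- Saline and 13.1 to 37.6 in Cre- MPTP, with 2 of the 4 tested called higher, Chil3 and Ly6c2. Ly6c2 did not pass the filter without Cre- MPTP replicate 2 or 3. Under MPTP, Chil3 was lower in Cre+ mice in 5 of the 13 fits without 1 library (not, for example, without Cre- MPTP replicate 3), and their monocyte genes summed to 21.7 to 27.6 CPM, against 22.2 to 24.7 CPM in Cre+ Saline. The part of these cells in the values of Lgals3, Cst7, Fcer1g and the other myeloid genes was not tested.

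Gpnmb and Cd68 encode glycoproteins of lysosomes in phagocytes. Gpnmb (ENSMUSG00000029816, chromosome 6, 49036546 to 49070929, plus strand) was 2.62, 2.38 and 1.20 CPM in Cre- Saline, 2.06, 3.60 and 4.16 in Cre- MPTP, 2.52, 1.34 and 3.27 in Cre+ Saline and 3.07, 3.41, 1.24 and 2.02 in Cre+ MPTP. All groups overlapped, and the difference with MPTP was 0.69 in Cre- mice (SE 0.449, adjusted p = 0.466) and 0.03 in Cre+ mice (SE 0.419, adjusted p = 1.0). Cd68 (ENSMUSG00000018774, chromosome 11, 69664213 to 69666153, minus strand) was 5.24, 3.28 and 6.39 CPM in Cre- Saline, 3.90, 4.79 and 12 in Cre- MPTP, 3.75, 4.15 and 3.81 in Cre+ Saline and 7.21, 4.08, 8.07 and 7.71 in Cre+ MPTP. In Cre+ MPTP, 3 of 4 libraries were above all Saline libraries and replicate 2 was not. The difference with MPTP was 0.8 in Cre+ mice (SE 0.381, unadjusted p = 0.0578, adjusted p = 1.0) and 0.49 in Cre- mice (SE 0.4, adjusted p = 0.564). The latter rested on Cre- MPTP replicate 3, without which it was -0.19.

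Other genes of lysosomes and phagosomes gave no common direction in Cre- mice, with a median of -0.05 over the 14 listed. The 2 that rose with MPTP (2.23% of all genes did) are surface receptors of myeloid cells. Cd14, a coreceptor for bacterial lipid, rose from 2.61 ± 0.216 to 19.0 ± 3.81 CPM (2.86, SE 0.338, adjusted p = 0.000979), and the scavenger receptor Msr1 rose from 0.345 ± 0.103 to 17.0 ± 4.48 CPM (5.61, SE 0.699, adjusted p = 0.0013). Both were lower in Cre+ than in Cre- mice under MPTP (Cd14 -2.08, adjusted p = 0.00827, and Msr1 -2.62, adjusted p = 0.0314). The Cd14 call held without each library in turn. Leaving out Cre+ MPTP replicate 1, 3 or 4 or any 1 Saline library ended the Msr1 call, and its difference was -3.53 when Cre+ MPTP replicate 2 was dropped.

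**Figure D3:**
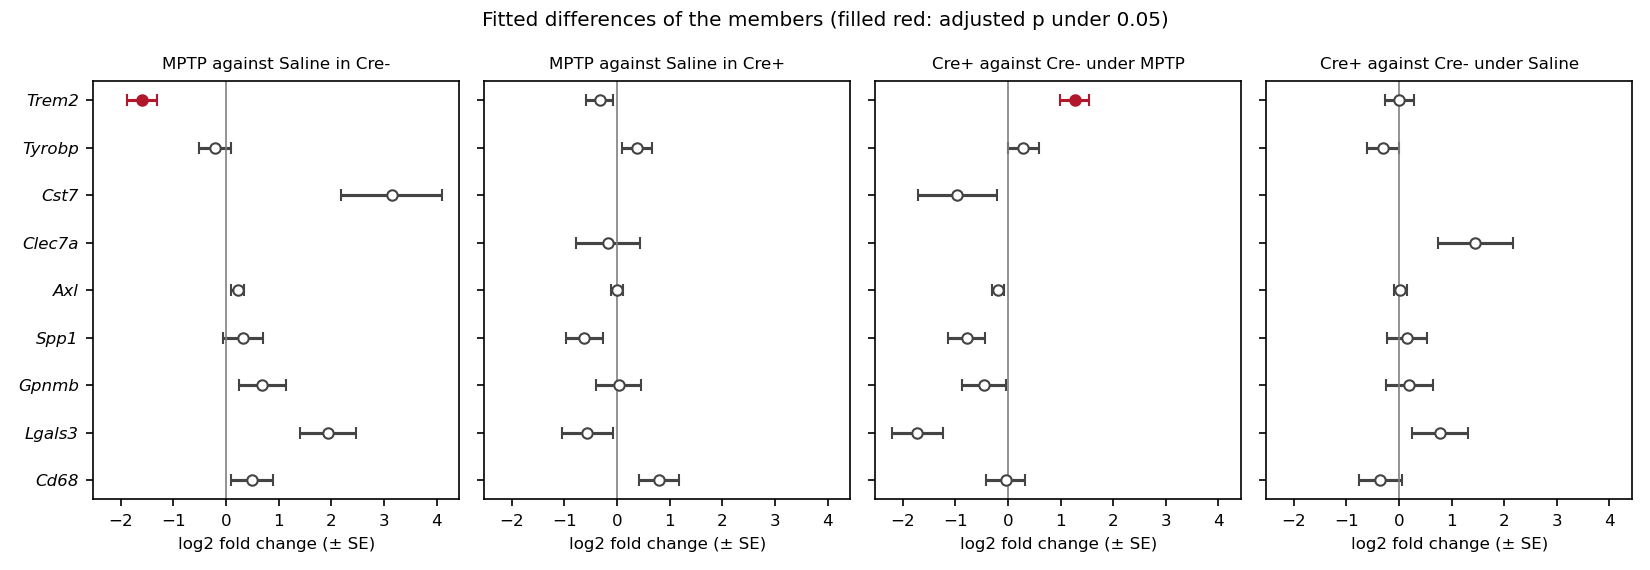
Fitted log2 fold change ± SE of the 9 tested members in the 4 comparisons, with the x axis shared. Filled red points have an adjusted p under 0.05, which holds only for Trem2, at -1.59 with MPTP in Cre- mice and at 1.27 between genotypes under MPTP; genes with a group at the floor of 3 counts have no point in that panel.

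Counted over the members, MPTP in Cre- mice gave 1 lower and 0 higher call among the 9 tested, against 3.18% of all genes tested called in either direction, 0.956% lower and 2.23% higher. The median log2 difference of the 9 was 0.32 against 0.03 over all genes, with 6 above and 3 below 0. An unadjusted p under 0.05 was found for 3 of the 9 (Trem2, Cst7 and Lgals3) and for 15.0% of all genes. Cst7 passed the filter only through MPTP libraries, where it was higher, so its place in the counts for MPTP is no separate support. The CPM of 2 of the 9 did not overlap between the groups, against 15.1% of all genes. In Cre+ mice, MPTP gave 0 calls by edgeR among the members and 0.0% among all genes. An unadjusted p under 0.05 was found there for 1 of the 9 members (Cst7) and for 3.47% of all genes. The CPM of 2 of the 9 (Trem2 and Cst7) did not overlap, against 9.66% of all genes. DESeq2 on the 2 groups called 1 of the 8 members it tested, Cd68 (adjusted p = 0.0299). The same fit called 204 genes higher and 116 lower among 18502.

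Between genotypes under MPTP, 1 of the 9 was called, Trem2, as higher in Cre+ mice, against 1.54% of all genes in either direction and 0.517% higher. The median was -0.19, and 4 of the 9 had an unadjusted p under 0.05 (Trem2, Clec7a, Spp1 and Lgals3) against 19.0% of all genes. The CPM of 3 of the 9 did not overlap (Trem2, Clec7a and Axl) against 11.3% of all genes. Clec7a passed the filter only through Cre+ libraries, where it was higher. Its place in these counts, and in those under Saline, is no separate support. Under Saline, edgeR called 0 of the 9 and 0.0% of all genes between genotypes, with 0 of the 9 and 0.909% of all genes at an unadjusted p under 0.05, and 2 of the 9 (Clec7a and Lgals3) against 11.6% did not overlap. The interaction was called for 0 of the 9 and for 0.0103% of all genes, and 2 of the 9 (Trem2 and Lgals3) against 5.76% of all genes had an unadjusted p under 0.05. DESeq2 and limma voom also called 0 members between genotypes under Saline.

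Other genes of the disease-associated program were read from a list of 28, of which 26 were tested. With MPTP in Cre- mice 4 rose, against 2.23% of all genes, and 0 fell. The median was 0.14, against 0.03 over all genes. Csf1, the growth factor for microglia, rose from 33.3 ± 5.06 to 78.1 ± 20.8 CPM (1.23, SE 0.181, adjusted p = 0.00267), and Capg, an actin-capping protein of macrophages, from 3.73 ± 0.139 to 13.5 ± 4.27 CPM (1.85, SE 0.265, adjusted p = 0.00253). Both held without each library in turn. The class I antigen gene H2-D1, whose reads can be shared with its close relatives, rose by 2.13 (adjusted p = 0.0229). This was 1.14 without Cre- MPTP replicate 1, and the call was lost without any 1 Cre- Saline library. In Cre- mice the leukocyte surface gene Cd52 rose by 1.81 (adjusted p = 0.0373), a call lost in 8 of 13 fits without 1 library, namely replicate 3 of Cre- MPTP, replicate 1 or 4 of Cre+ MPTP, any Cre- Saline library, or replicate 2 or 3 of Cre+ Saline. In Cre+ mice 0 of the 26 were called with MPTP. Between genotypes under MPTP, Csf1 was lower in Cre+ mice, at 38.7 ± 1.48 CPM (-1.01, SE 0.166, adjusted p = 0.0133), and was the only 1 called; it was lost without Cre+ MPTP replicate 1 or 3 (adjusted p up to 0.0582).

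Of 10 homeostatic microglia genes tested, 5 fell with MPTP in Cre- mice, as Trem2 did, against 0.956% of all genes. The median was -1.5, against 0.03 over all genes. Of the 10, 0 rose and 5 did not pass the test. Among the last, Tmem119 had a difference of 0.2 (adjusted p = 0.79) and Cx3cr1 of -0.2 (adjusted p = 0.795); both were singled out after their values were seen. In Cre+ mice 0 were called and the median was 0.09. P2ry12, the purine receptor of resting microglia, fell from 22.2 ± 3.72 to 3.15 ± 0.579 CPM in Cre- mice (-2.79, SE 0.199, adjusted p = 0.000104), and Fcrls, Siglech, Gpr34 and P2ry13 were the other 4. Under MPTP 6 of the 10 were higher in Cre+ mice, against 0.517% of all genes, and 0 were lower. The median was 1.79, against 0.03 over all genes. P2ry12, at 14 ± 1.14 CPM there, differed by 2.12 (SE 0.188, adjusted p = 0.00142). P2ry12 was also called in the interaction (2.26, SE 0.258, adjusted p = 0.024), as 1 of the 10, against 0.0103% of all genes. The falls in Cre- mice held without each library in turn. Of the 6 genotype calls, those of P2ry12, Siglech and Fcrls did so too; P2ry13 was lost without Cre+ MPTP replicate 1 or 3, Olfml3 without Cre+ MPTP replicate 1, 3 or 4, and Gpr34 in 8 of the 13 fits, those that dropped Cre+ MPTP replicate 1, 3 or 4, replicate 2 or 3 of Cre- Saline, or any Cre+ Saline library.

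Of the 12 pan-microglial genes, 2 rose with MPTP in Cre- mice (2.23% of all genes did) and 0 fell, with a median of 0.4. They were Itgam, which encodes CD11b and is shared with neutrophils and monocytes (1.36, SE 0.246, adjusted p = 0.00829), lost without Cre- Saline replicate 2 or 3, and the gene of PU.1, Spi1 (3.03, adjusted p = 0.0457), whose call held only in the fits without 1 of the 3 Cre- MPTP libraries and whose difference was 1.21 without Cre- MPTP replicate 1. C1qa, a complement gene of microglia, had a difference of 1.22 (adjusted p = 0.121). In Cre+ mice 0 of the 12 were called, with a median of 0.62 and all 12 above 0. Between genotypes under MPTP 0 were called, with a median of 0.19.

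**Figure D4:**
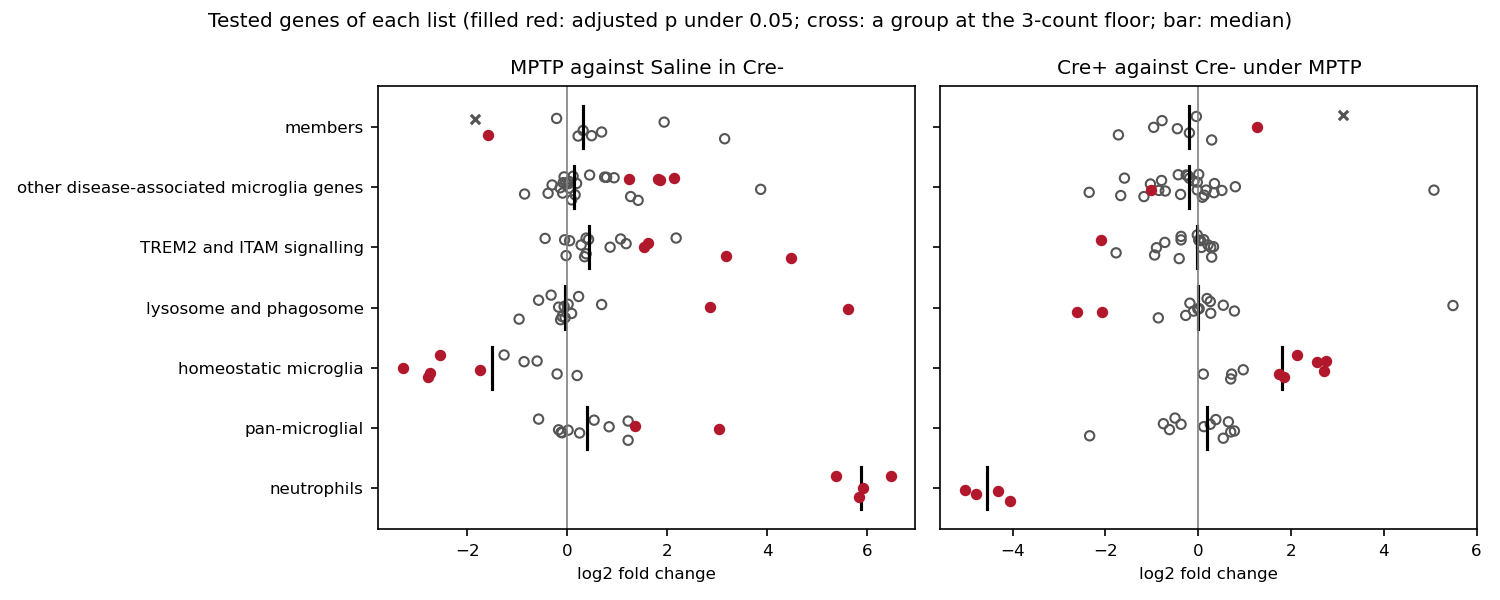
Fitted log2 fold change of the tested genes of 7 lists, with MPTP in Cre- mice on the left and between genotypes under MPTP on the right. Each symbol is a gene, filled red where the adjusted p is under 0.05 and a cross where a group is at the floor; the black bar is the list's median, which is 0.32 and -0.19 for the members and -1.5 and 1.79 for the homeostatic genes.

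The members differed in which library they were highest or lowest in, and this bears on every mean over Cre- MPTP. Over 9 members, leaving out Clec7a whose counts were at the floor, Cre- MPTP replicate 3 was the highest of its group for 6. Replicate 1 was the lowest for 6, with Itgax tied at 0 counts, and the highest for 2 (Axl and Lgals3). In Cre+ MPTP, replicate 2 was the lowest for 5 of the 10 members. Without both libraries that stood apart, 1 member was called lower with MPTP in Cre- mice and 0 higher, and 0 were called between genotypes under MPTP.

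Of 7 border macrophage genes, Mrc1 was lower with MPTP in Cre- mice and higher in Cre+ than in Cre- mice under MPTP, and the list summed to 16.1 to 17.9 CPM in Cre- Saline and 9.21 to 26.3 in Cre- MPTP. Of 6 astrocyte genes, Gfap and Aldh1l1 rose with MPTP in Cre- mice and Gfap was lower in Cre+ mice under MPTP. In Cre- mice with MPTP, 1 of 5 endothelial genes was lower (Tek), 1 of 6 meningeal fibroblast genes was higher and 1 lower (Dcn and Igf2), and 1 of 4 oligodendrocyte genes was lower (Mog), of which the calls of Dcn and Mog, and those of Mrc1 and Aldh1l1 above, were lost without several single libraries, while 0 of 4 oligodendrocyte precursor genes, 0 of 7 dopaminergic genes, 0 of 6 cranial motor neuron genes, 0 of 5 choroid plexus genes and 0 of 6 muscle genes were called. Between genotypes under MPTP, 1 endothelial gene was higher in Cre+ mice (Tek), and 0 genes of the fibroblast, oligodendrocyte, precursor, neuronal, choroid plexus and muscle lists were called.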

How the data were processed

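RNA was extracted from the whole midbrain of 13 mice and sequenced after total RNA, strand-marking library preparation. The authors trimmed reads with Trimmomatic 0.36, aligned them to GRCm38 with STAR 2.5.2b and counted them per gene with featureCounts of Subread 1.5.2; the strand setting is not given in the sources used here. The deposited counts are whole numbers without normalization for 49315 genes, of which 48970 were paired with a symbol. The exon length deposited per gene served only to set levels between genes (CPM per kb).

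Groups follow the genotype and treatment given in the labels. Counts were fitted with edgeR 4.0.16 (R 4.3.3) using TMM factors, a filter of 10 counts in at least 3 libraries (19360 genes), 1 term per group over all 13 libraries, the quasi-likelihood test and Benjamini-Hochberg adjustment within each comparison, called under 0.05. SE is the absolute log2 fold change over the square root of F. CPM are counts over TMM-adjusted totals, and 3 counts per library were the floor. Totals of 11489150 to 29397278 limit members with few counts; p-values measure the spread between mice.

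Alternatives were DESeq2 1.42.0 on all libraries or on 2 groups, limma 3.58.1 voom with quality weights, edgeR on 2 groups, DESeq2 size factors, no filter or one of 50 counts, a replicate block, each library left out and, added after the data were seen, both libraries that stood apart left out. The fits were tested on simulated data. The members, gene lists and the rule for naming genes (all members, called list genes up to 5 per list and comparison, and direct partners) were chosen with earlier results of these data known; Ripk3 and Ly6g were added as checks.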

Additional observations from a re-analysis of the deposited data

Results flagged for a closer look

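In Cre+ MPTP, the only group of 4, replicate 2 lay far below the other libraries in 3 of 13 measures examined for a library apart from its group by Dixon's criterion. Chance flags about 1 in 20 such groups. Tyrobp was 6.04 CPM in this library, against 8.74 to 9.09 CPM in the other 3. The summed CPM of the 10 homeostatic microglia genes was 156, against 212 to 220, and that of the 12 pan-microglial genes was 318, against 489 to 517. The same library was the lowest of its group for 5 of the 10 members, and for Spp1 it was the highest, at 149 CPM.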

How the results depend on the processing

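Members called were counted under each setting, against 0 higher and 1 lower with MPTP in Cre- mice, 0 in Cre+ mice, and 1 higher and 0 lower between genotypes under MPTP (Cre+ relative to Cre-). With MPTP in Cre- mice, DESeq2 on all 13 libraries called 2 members higher (Cst7 and Lgals3) and voom 3 (Cst7, Lgals3 and Cd68), while edgeR on the 2 groups called 0 lower. Of all 19360 genes, DESeq2 on all 13 libraries called 757 higher and voom 1373, against 431 in the main fit. EdgeR on the 2 groups called 5 of 18332 genes lower. With each library left out, 0 to 1 members were higher there: Cst7 without Cre- MPTP replicate 1, and Lgals3 without Cre- MPTP replicate 2. In Cre+ mice DESeq2 on the 2 groups called 1 member higher (Cd68), and 204 of 18502 genes. Between genotypes under MPTP, 2 members were higher by DESeq2 on all libraries and 2 by voom, and 0 by edgeR on the 2 groups and without both libraries that stood apart. By DESeq2 on all libraries 1 was lower (Lgals3), and by voom 2 (Cst7 and Spp1). Of all 19360 genes, DESeq2 on all libraries called 269 higher and 565 lower, voom 488 and 736, and the main fit 100 and 199. EdgeR on the 2 groups called 0 of 18480 genes. Leaving out each library gave 0 to 2 members higher and 0 to 1 lower there. In the interaction voom called 2 members lower (Lgals3 and Spp1), and 398 of 19360 genes. Replicate numbers did not pair the libraries: 18 same-number pairs correlated at -0.212 to 0.178 (median 0.018) and 45 other pairs at -0.271 to 0.387 (median -0.015). With the replicate block, 0 members were higher between genotypes under MPTP (Trem2 1.26, adjusted p = 0.141). Signs turned for Tyrobp with MPTP in Cre- mice (0.2 by voom and 0.11 without both libraries that stood apart; -0.58 to 0.1 with each library left out), for Tyrobp between genotypes under MPTP (-0.05 without both; -0.01 to 0.67 with each left out), and for Cd68 with each left out (-0.19 to 0.76 with MPTP in Cre- mice, -0.31 to 0.64 between genotypes under MPTP). The causes were not tested. Of the alternative values compared with the main fit, 192 stayed the same and 26 moved. Nearly all are counts of called members, for which staying the same means only that the same 0 or 1 recurred. Members with few counts, Itgax, Clec7a and Cst7, are limited by depth.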
